A study of Homo sapiens with 6 samples.

Results

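NF-kB is a family of dimeric transcription factors, and 10 genes of its pathway were examined: the subunits NFKB1, NFKB2, RELA and RELB, the inhibitors NFKBIA, NFKBIE and TNFAIP3, and the targets BIRC3, ICAM1 and IL32. They were taken by gene symbol from 2 tables of the authors' own comparison, which hold 7681 genes with a q-value below 0.05, 3898 of them higher and 3783 lower. Of the 10 genes 8 were in the tables, 5 higher and 3 lower, where 50.7% of all listed genes were higher and 49.3% lower, and RELA and NFKBIE were in neither. The genes were selected on these same fold changes and q-values, so the values are a description and carry no test beyond the authors' q-values.

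The study sequenced RNA from HCT116, a human colorectal carcinoma cell line, to ask what loss of RAB27B does in these cells. RAB27B is a small GTPase of secretory vesicles. The 3 wild-type and 3 Rab27B KO cultures were untreated and were grown for 48 hours in the same medium, and the KO cells had been edited with CRISPR/Cas9. No source used here says whether the KO cultures came from a single clone. The tables give 1 log2 fold change of KO over wild type and 1 q-value per gene, with no value per sample, so no standard error can be attached to a fold, and neither the spread between cultures nor the depth behind a gene is known.

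RAB27B itself (chromosome 18, 54717857 to 54895516 in GRCh38) went against its label. Its transcript had a log2 fold change of 5.20 in the samples labelled Rab27B KO, 36.7-fold higher, with q listed as 0, per the authors' deposited table. Directions below follow the column headers: higher means higher in the samples labelled Rab27B KO than in those labelled wild type.

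In resting cells NF-kB dimers are held in the cytoplasm by IkB proteins. Signals from TNF, interleukin-1 or Toll-like receptors activate the IKK kinases, which mark IkB for degradation and free dimers of RELA and the NFKB1 product p50. A slower, non-canonical branch processes the NFKB2 product p100 to p52, the partner of RELB. Several pathway genes are themselves targets: NFKBIA and TNFAIP3 feed back to end the signal, and BIRC3, ICAM1 and IL32 are known to be induced by it in epithelial cells.

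The DNA element bound by these dimers, the kB site, is shown here because genes that carry it went in opposite directions. RefSeq start-site windows (GRCh38.p14, 250 bases before to 50 after an annotated start) were matched for 8 of the 10 genes, 13 windows in all; RELB and NFKBIE had none. The windows were searched on both strands for the NF-kB consensus and for the shorter motif GGAANNTCC, which can overlap it and was added after the data were seen. Each sequence below is read 5′ to 3′ on the strand of its gene, and capitals mark the matched bases. Stretches are limited to 30 bases because GENCODE release 29 places exons of longer transcripts in several of these windows, and a further 2 NFKB2 matches are not shown.
BIRC3 (higher), chr11:102317275-102317304, plus strand: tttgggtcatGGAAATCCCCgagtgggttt
BIRC3 (higher), chr11:102317339-102317368, plus strand: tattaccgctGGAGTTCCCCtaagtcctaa
TNFAIP3 (higher), chr6:137867188-137867217, plus strand: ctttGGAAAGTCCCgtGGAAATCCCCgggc
NFKBIA (higher), chr14:35404811-35404840, minus strand: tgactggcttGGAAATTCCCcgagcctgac
NFKBIA (higher), chr14:35404970-35404999, minus strand: ggtcggaaGGACTTTCCagccactcggcgc
NFKB2 (higher), chr10:102394462-102394491, plus strand: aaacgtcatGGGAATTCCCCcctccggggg
NFKB2 (higher), chr10:102395674-102395703, plus strand: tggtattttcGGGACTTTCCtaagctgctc
NFKB1 (lower), chr4:102501300-102501329, plus strand: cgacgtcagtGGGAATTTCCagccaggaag
IL32 (lower), chr16:3065295-3065324, plus strand: ctgtactcaGGGAGTTTCCCcagccagctg
IL32 (lower), chr16:3065325-3065354, plus strand: tcccgagtctGGACTTTCCctctgcccctc
ICAM1 (lower), chr19:10270924-10270953, plus strand: gctttagcttGGAAATTCCggagctgaagc

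The consensus was found in 7 of the 13 windows, belonging to 6 genes. It was found in 5.91% of all 35116 RefSeq windows, in 7.82% of the windows of higher listed genes and in 7.11% of those of lower listed genes. The genes described were chosen as pathway genes, several of them known NF-kB targets, and NFKB2 alone has 3 windows. A high share of matches was thus built into their choice, and nothing is read from the contrast. Of the 6 genes, NFKB2, NFKBIA, TNFAIP3 and BIRC3 were higher and NFKB1 and IL32 were lower. The windows of ICAM1 and RELA held no match to it, which says only that these letters are not in these windows. The shorter motif was in 6 of the 13 windows, including that of ICAM1, against 4.56% of all windows. In the windows of higher and lower listed genes its share was 4.95% and 4.83%. A looser form, with G at the first 3 and C at the last 2 of 10 bases and any bases between, was in all 13 windows but also in 58.7% of all windows. In the windows of higher and lower listed genes that form was in 75.3% and 71.7%. The shorter-motif match in the ICAM1 window began 186 bases before the annotated start. In the IL32 window the consensus match began 99 bases before the start, where it overlaps a shorter-motif match, and a further shorter-motif match began at 68 bases. The BIRC3 window held consensus matches beginning 199 and 135 bases before the start. A match is a description of sequence; binding was not measured.

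To show a pair of matches in their setting, the BIRC3 window is printed up to the first GENCODE exon of the gene, and the NFKBIA window up to the annotated start, since GENCODE placed no exon in those 250 bases.
BIRC3, chr11:102317234-102317449, plus strand: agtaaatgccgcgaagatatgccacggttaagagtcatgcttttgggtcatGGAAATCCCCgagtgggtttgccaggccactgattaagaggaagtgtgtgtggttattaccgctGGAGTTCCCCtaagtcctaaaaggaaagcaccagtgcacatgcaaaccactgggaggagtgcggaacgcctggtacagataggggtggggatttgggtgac
NFKBIA, chr14:35404750-35404999, minus strand: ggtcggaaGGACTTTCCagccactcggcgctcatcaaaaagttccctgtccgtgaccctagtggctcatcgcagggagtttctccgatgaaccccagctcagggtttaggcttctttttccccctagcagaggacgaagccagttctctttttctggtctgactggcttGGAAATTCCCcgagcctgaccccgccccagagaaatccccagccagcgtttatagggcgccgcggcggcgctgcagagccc

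**Figure D1:**
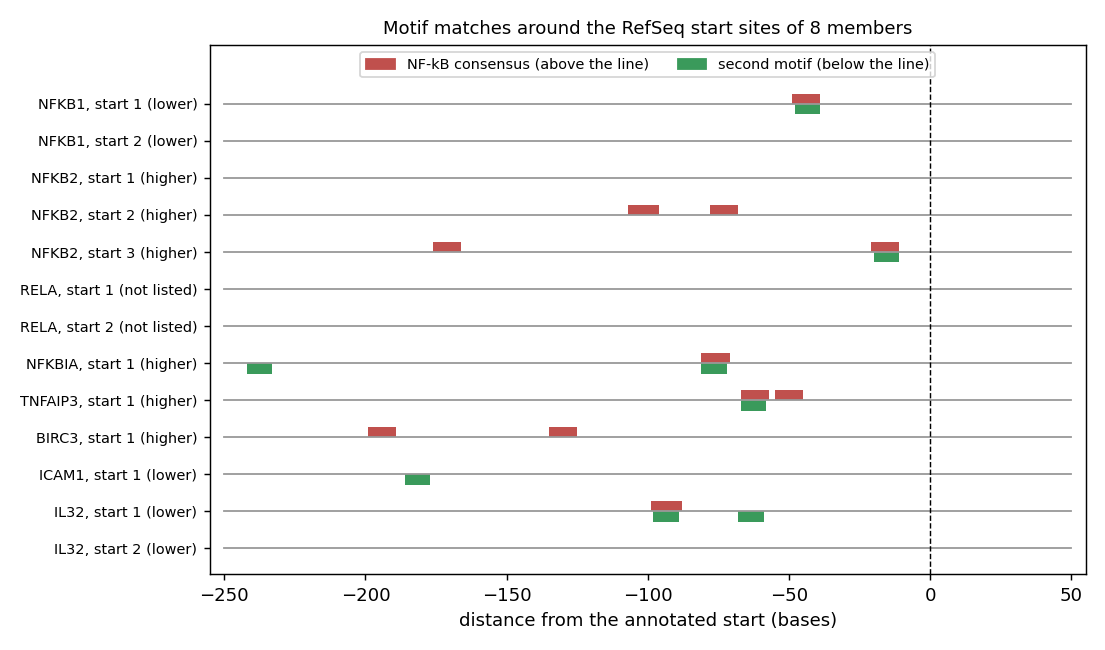
Positions of matches to the NF-kB consensus (red, above each line) and to the shorter motif (green, below) in the 13 RefSeq windows of 8 genes, as distance from the annotated start in bases; the direction of each gene in the samples labelled Rab27B KO is in brackets. Consensus matches stand in windows of 4 higher genes and of 2 lower genes, and the ICAM1 window holds the shorter motif alone.

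Among the 4 subunit genes the direction differed. NFKB2 and RELB, the genes of the non-canonical dimer, were higher by similar amounts, NFKB1 was lower and RELA was in neither table. As a background, 37.9% of the 20056 RefSeq protein-coding genes were listed, 19.2% as higher and 18.7% as lower; how many genes the authors tested is unknown, so this base is larger than the set of expressed genes.

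NFKB2 (chromosome 10, 102394110 to 102402529), which encodes p100 and p52, had a log2 fold change of 0.86, or 1.82-fold higher, with q = 6.35e-66, per the authors' deposited table. RELB (chromosome 19, 45001464 to 45038192), the partner of p52, stood at 0.89, or 1.86-fold higher, with q = 4.81e-16, per the authors' deposited table. The 2 genes thus differed little in fold but widely in q-value, and without counts it is unknown whether abundance or spread between cultures lies behind that gap. NFKB1 (chromosome 4, 102501359 to 102617302), which encodes p105 and p50, had a log2 fold change of -0.58, or 1.50-fold lower, with q = 2.28e-16, per the authors' deposited table. The fall of NFKB1 was the smallest change among the 8 listed genes. It stood on a chromosome where lower genes predominated: of 298 listed genes on chromosome 4 only 50, or 16.8%, were higher, against 50.7% of all listed genes. The part of that chromosome-wide shift in the NFKB1 value was not tested. On the chromosomes of the other genes the share higher ran from 47.5% to 58.3%. RELA (chromosome 11, 65653601 to 65663857), the main transactivating subunit, was in neither table, which says only that its q-value did not pass or that it was not tested.

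Of the 3 inhibitors 2 were higher and none was lower. NFKBIA (chromosome 14, 35401513 to 35404749) encodes IkB-alpha, which retains p50 and RELA dimers in the cytoplasm. Its log2 fold change was 0.91, or 1.88-fold higher, with q = 7.58e-45, per the authors' deposited table. TNFAIP3 (chromosome 6, 137866349 to 137883312) encodes A20, a ubiquitin-editing enzyme that shuts off signalling upstream of IKK. It was 2.87-fold higher, a log2 fold change of 1.52, with q = 7.75e-23, per the authors' deposited table. NFKBIE (chromosome 6, 44258166 to 44265551), which encodes IkB-epsilon, was in neither table.

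The 3 targets differed both in direction and in size. BIRC3 (chromosome 11, 102317484 to 102339403) encodes cIAP2, a ubiquitin ligase of TNF receptor complexes that restrains cell death. It was 4.06-fold higher, a log2 fold change of 2.02, with q = 6.44e-28, per the authors' deposited table. ICAM1 (chromosome 19, 10271120 to 10286615) encodes an adhesion receptor for leukocyte integrins. Its log2 fold change was -5.54, or 46.4-fold lower, with q = 6.25e-73, per the authors' deposited table. IL32 (chromosome 16, 3065403 to 3069530) encodes a pro-inflammatory cytokine and was the most strongly changed of the 8 genes. It stood at -6.01, or 64.6-fold lower, with q = 2.48e-48, per the authors' deposited table. Both falls were several times larger on the log2 scale than any rise among the subunits and inhibitors.

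**Figure D2:**
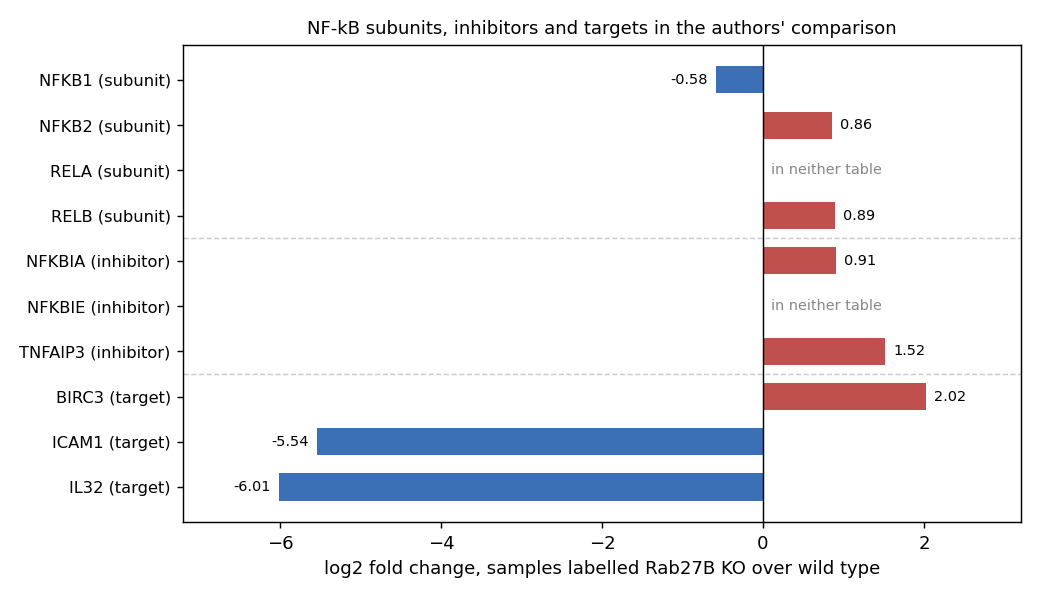
Bars give each gene's log2 fold change (samples labelled Rab27B KO over wild type), with genes grouped as subunits, inhibitors and targets; the tables give no error. The rises reach 2.02 for BIRC3, while ICAM1 and IL32 reach -5.54 and -6.01.

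Ranked by size among the 3783 lower genes, IL32 was at place 13 and ICAM1 at place 22, so 0.344% and 0.582% of that table changed as much or more. NFKB1 was at place 1185, with 31.3% of the lower genes at least as far from 0. Ranked among the 3898 higher genes, BIRC3 was at place 142, TNFAIP3 at 231, NFKBIA at 566, RELB at 583 and NFKB2 at 628. The 5 rises therefore lay in the upper 16.1% of the higher table and the 2 large falls at the extreme of the lower one. A log2 change of at least 1 was listed for 4 of the 8 genes, BIRC3 and TNFAIP3 higher and ICAM1 and IL32 lower, where 12.6% of all listed genes had one, 6.11% higher and 6.5% lower. The median absolute log2 change was 1.21 over the 8 genes and 0.41 over all listed genes. Since the genes were picked for their changes, nothing is read from these shares.

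**Figure D3:**
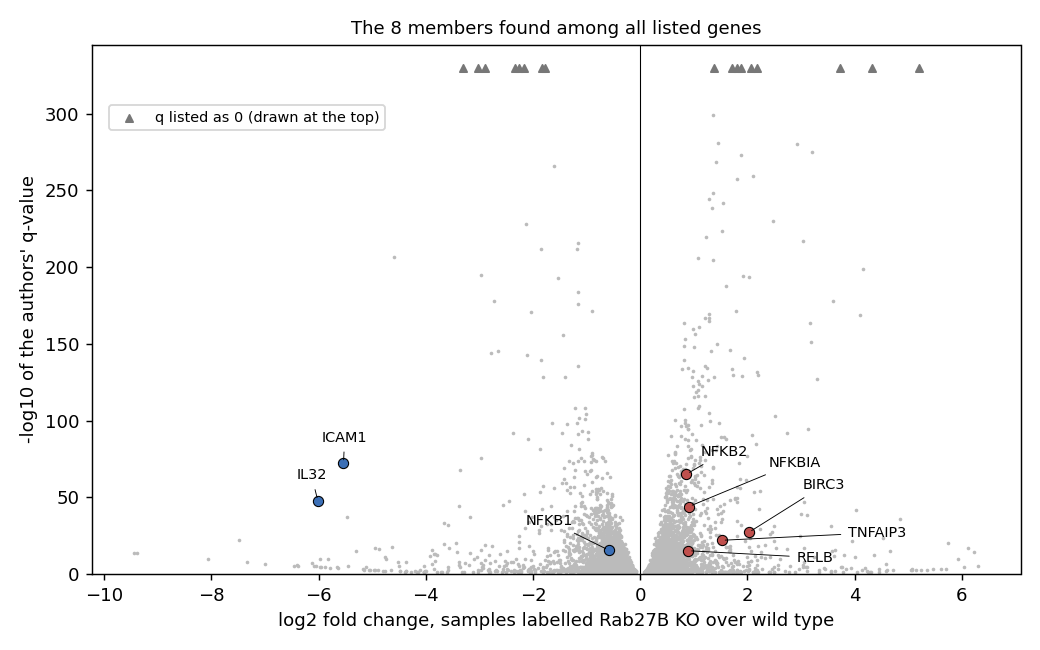
Each grey point is a listed gene, with its log2 fold change on the x axis and -log10 of the authors' q-value on the y axis; the 17 genes with q listed as 0 are drawn as triangles at the top. ICAM1 and IL32 sit far left, at q-values of 6.25e-73 and 2.48e-48, and the 5 higher genes lie between log2 values of 0.86 and 2.02.

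No listed gene within 100 kb of ICAM1 or IL32 fell by a log2 change of 1 or more. Among all listed genes 6.5% fell that far and 50.7% were higher, so nothing is read from the few neighbours of either gene. For neighbours, the start of a gene means its lowest coordinate, whatever its strand, and distances are between these coordinates. Of the 4 listed genes starting within 100 kb of ICAM1, 3 were higher and 1 lower. ICAM5 and ICAM3, paralogs in the same cluster starting 18.8 and 62.7 kb away, were 1.23-fold (q = 0.00812) and 1.41-fold (q = 0.0119) higher, per the authors' deposited table. MRPL4, a mitochondrial ribosomal protein gene 19.2 kb from ICAM1, had a log2 fold change of 0.22 and FDX2, a ferredoxin gene at 38.9 kb, one of -0.34, per the authors' deposited table. ICAM2 and ICAM4 were in neither table.

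Around IL32 4 of 5 listed genes within 100 kb were higher, where 53.5% of the listed genes on chromosome 16 were higher. The closest, BICDL2, started 37.7 kb away and had a log2 fold change of -0.87, per the authors' deposited table. The others, THOC6, HCFC1R1, TNFRSF12A and PAQR4, had log2 fold changes of 0.36, 0.98, 0.85 and 0.29, per the authors' deposited table. The largest of these neighbour changes was thus under 1 on the log2 scale, against -6.01 for IL32.

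No listed gene started within 100 kb of BIRC3 or NFKB1. BIRC2, the paralog of BIRC3, was in neither table. Within 1 Mb of BIRC3, the matrix protease genes MMP10 and MMP1 started 453 and 472 kb away. Their log2 fold changes were 3.11 and 3.45, with q-values of only 0.00448 and 0.000633, per the authors' deposited table. YAP1, a Hippo pathway coactivator on the other side, was at -0.81 and DYNC2H1, a ciliary motor gene, at -1.73, per the authors' deposited table. All 3 listed genes within 1 Mb of NFKB1 were lower, with log2 fold changes of -0.31 for UBE2D3, -0.82 for SLC9B2 and -0.86 for BDH2, per the authors' deposited table. Of the 298 listed genes on chromosome 4 only 16.8% were higher, so this count is near the share of the chromosome. Within 1 Mb of ICAM1 17 listed genes were higher and 15 lower, and within 1 Mb of IL32 18 and 7. Over the whole chromosome the share higher was 58.3% for ICAM1 (chromosome 19) and 53.5% for IL32 (chromosome 16). AP1M2, an adaptor gene of epithelial membrane traffic 302 kb from ICAM1, was at -2.90 (q listed as 0), per the authors' deposited table. PRSS22, a serine protease gene 213 kb from IL32, was at -1.60, per the authors' deposited table. The largest rises there were 1.80 for COL5A3 (q = 0.0406), near ICAM1, and 1.17 for PRSS33, near IL32, per the authors' deposited table. These genes between 100 kb and 1 Mb were named after their values were seen. Within 100 kb of the other genes, 2 of 4 listed neighbours of NFKB2, 1 of 6 of RELA, 2 of 4 of RELB and 3 of 3 of NFKBIE were higher. These neighbours are too few to set against the 50.7% of all listed genes that were higher. Their log2 fold changes ran from -0.81 for C10orf95, near NFKB2, to 0.51 for the nucleoside transporter gene SLC29A1, near NFKBIE, per the authors' deposited table. NFKBIA and TNFAIP3 had no listed neighbour within 100 kb.

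**Figure D4:**
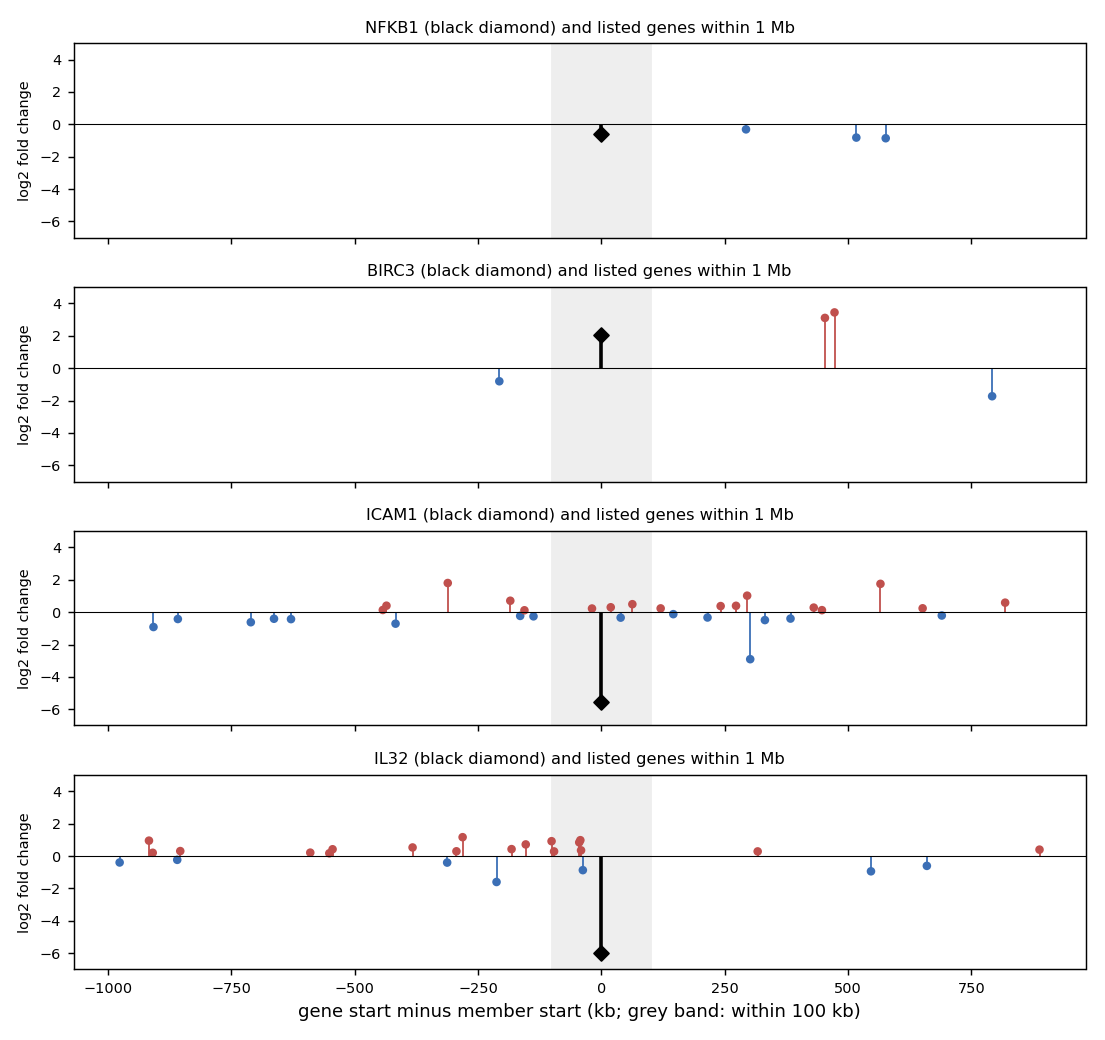
Log2 fold change of listed genes near NFKB1, BIRC3, ICAM1 or IL32 (black diamond), by distance between the lowest coordinates of the genes, in kb. The grey band marks 100 kb to each side. Listed genes near ICAM1 ran from -2.90 (AP1M2) to 1.80 (COL5A3) and those near IL32 from -1.60 (PRSS22) to 1.17 (PRSS33). The 3 near NFKB1 were all lower, on a chromosome where 16.8% of listed genes were higher.

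Genes annotated over ICAM1 (ICAM4-AS1 and LIMASI), TNFAIP3 (WAKMAR2), IL32 (RNU1-125P) and NFKB1 (NFKB1-AS1 and 2 unnamed loci) could share reads with them. None of these was in the tables, and no source used here says whether counting used strand.

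The wider pathway was described with 10 lists of 189 distinct genes, which include the 10 genes above. Of the 189 genes 103 were listed, 80 higher and 23 lower, with a median log2 fold change of 0.48. Over all 7681 listed genes 50.7% were higher and the median was 0.12. The share listed was 54.5% of the 189 genes and 37.9% of RefSeq protein-coding genes. These shares are the base for the counts of each list below. Without the 10 genes the lists held 179 genes, of which 75 were higher, 20 lower and 84 not listed, again with a median of 0.48. These counts were made with earlier results of these data known.

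Beside the 4 subunits above, REL was in neither table. In the IkB family of 7 genes 4 were listed, all higher, with a median of 0.79, where 50.7% of all listed genes were higher. BCL3, a nuclear IkB that binds p50 and p52 dimers, was 1.60-fold higher (q = 2.69e-21), per the authors' deposited table. NFKBIZ, another nuclear IkB and itself an early NF-kB target, was 3.03-fold higher (q = 1.16e-18), per the authors' deposited table. BCL3 and NFKBIZ thus rose as the cytoplasmic inhibitor gene NFKBIA did, while NFKBID, a further nuclear member, was in neither table.

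Genes of the IKK complex and its activators were listed at 57.1%, near the 54.5% of all pathway lists together. Among the pathway lists the share ran from 17.6% for ligands to 85.2% for survival and feedback targets. The share of the IKK list thus does not set it apart. The base of 37.9% of RefSeq protein-coding genes is larger than the set of expressed genes, so nothing is read from that contrast. Of 14 genes of the IKK complex and its activators 8 were listed, 5 higher and 3 lower, and none of the 8 had a log2 change of 1 or more (median 0.18). At a q-value below 0.01 the counts were 3 higher and 1 lower. Of the kinase genes only CHUK was listed, and they are too few to set against 37.9%. IKBKB, MAP3K14, MAP3K7, TBK1, IKBKE and MAP3K8 were in neither table. TAB2, an adaptor of the kinase TAK1, and CHUK, which encodes IKK-alpha, had log2 fold changes of 0.20 and 0.24, per the authors' deposited table. TBKBP1, an adaptor of the kinase TBK1, and TAB3 stood at -0.32 and -0.21, per the authors' deposited table.

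Of 21 negative regulators 13 were listed, 10 higher and 3 lower (median 0.31). RNF11, a partner of A20 in ubiquitin editing, was 1.51-fold higher (q = 8.44e-31), per the authors' deposited table. SIGIRR, an inhibitory receptor of interleukin-1 signalling, had a log2 fold change of -0.81 and N4BP1 one of -0.23, per the authors' deposited table. TNFAIP3 showed the largest change of this list.

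Receptors and adaptors went both ways. Of 28 adaptors and ubiquitin ligases 17 were listed, 10 higher and 7 lower (median 0.18), with BIRC3 the only one at a log2 change of 1 or more. The Toll-like receptor adaptor genes differed. TICAM1 had a log2 fold change of 0.55, per the authors' deposited table. MYD88, the adaptor shared with the interleukin-1 receptor, and TIRAP were at -0.50 and -0.37, per the authors' deposited table. TICAM2 was in neither table, and TIRAP and TICAM2 were named after their values were seen. NOD1, a sensor of bacterial peptidoglycan, was at -0.68, per the authors' deposited table. Of 29 receptors 13 were listed, 9 higher and 4 lower (median 0.46). TNFRSF12A, the receptor of TWEAK, and TNFRSF1A, the main TNF receptor, were 1.80-fold and 1.37-fold higher, per the authors' deposited table. TNFRSF21, a death-domain receptor, had a log2 fold change of -0.42 and EDAR, the ectodysplasin receptor, one of -3.67 (q = 2.37e-20), per the authors' deposited table.

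Of 17 ligand genes 3, or 17.6%, were listed, against 37.9% of RefSeq protein-coding genes, and TNF and IL1B were in neither table. All 3 were higher (median 1.36), which is too few genes to set against the 50.7% of all listed genes. TNFSF9, the ligand of 4-1BB, was 2.57-fold higher (q = 1.15e-69), per the authors' deposited table. TNFSF12, which encodes TWEAK, was 1.42-fold higher, per the authors' deposited table. IL1A was 17.7-fold higher with a q-value of only 0.00349, per the authors' deposited table.

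The other targets give the setting for the opposed values of BIRC3, ICAM1 and IL32. Of 21 chemokine and cytokine targets 12 were listed, and IL32 was the single lower gene among them (median 2.34). The neutrophil chemokine genes CXCL8 and CXCL1 had log2 fold changes of 4.02 (q = 1.90e-42) and 3.55 (q = 3.99e-32), per the authors' deposited table. The other 11 listed cytokine targets were higher, 9 of them by a log2 change of 1 or more, where 6.11% of all listed genes rose that far. Without chromosomes 4, 7, 13 and 15 the 11 became 5, since 6 of them, CXCL1, CXCL2, CXCL3, CXCL8, CXCL10 and CXCL11, are clustered on chromosome 4.

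Of 23 adhesion, matrix and acute-phase targets 10 were listed, 8 higher and 2 lower (median 0.89), the 2 lower being ICAM1 and LCN2. LCN2, which encodes the iron-binding protein lipocalin-2, had a log2 fold change of -3.05 (q = 7.99e-12), per the authors' deposited table. PLAUR and PLAU, the urokinase receptor and urokinase, were 4.20-fold (q listed as 0) and 1.95-fold (q = 1.54e-50) higher, per the authors' deposited table. VCAM1 and SELE, the other leukocyte adhesion receptors of the list, were in neither table.

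Of 27 survival and feedback targets 23 were listed, 20 higher and 3 lower (median 0.49). BIRC3 had the largest change of this list. BCL2L1, which encodes the anti-apoptotic protein BCL-XL, the antigen presentation gene B2M and the transcription factor gene KLF6 were 1.56-fold, 1.51-fold and 1.48-fold higher, per the authors' deposited table. CFLAR, an inhibitor of caspase-8, and TRAF1 had log2 fold changes of -0.35 and -0.93, per the authors' deposited table. Over all 10 lists, 22 genes were higher and 5 lower by a log2 change of 1 or more. Among all listed genes 6.11% were higher and 6.5% lower by that much. Of the 22 genes 9 were chemokine and cytokine targets, the list that holds the CXCL cluster on chromosome 4. The 5 lower genes were IL32, ICAM1, EDAR, LCN2 and TNFRSF1B, the last at -2.41, per the authors' deposited table and named after its value was seen.

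**Figure D5:**
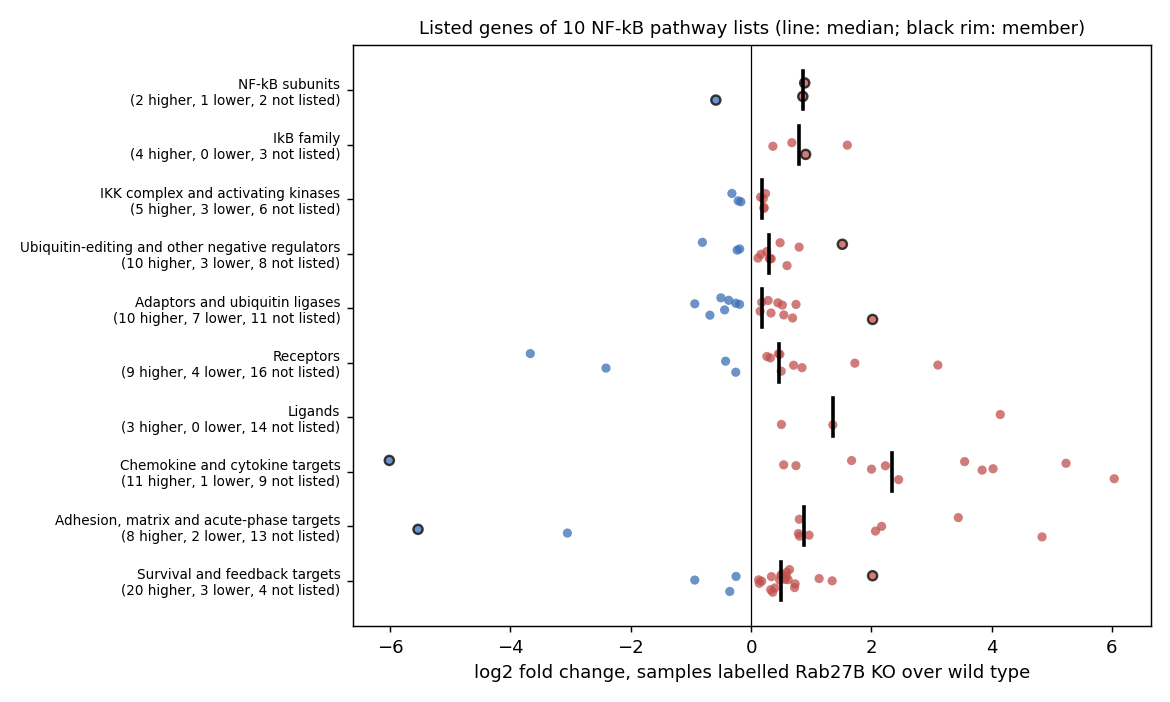
Each point is a listed gene of a pathway list, with its log2 fold change on the x axis; lines give list medians and black rims mark the genes the report is about. IL32 and ICAM1 lie at the far left of target lists whose other points are mostly to the right of 0.

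All cultures were labelled as the HCT116 line, so other cell types are not part of the design. Their markers were still checked because leukocytes and endothelium also express ICAM1 and IL32. Of 16 leukocyte markers 2, or 12.5%, were listed, against 37.9% of RefSeq protein-coding genes. They were CD68 at 3.51-fold and LYZ at 2.53-fold higher, per the authors' deposited table. The other markers of that list, PTPRC among them, were in neither table. The 13 markers of fibroblasts and endothelium included 2 listed genes, or 15.4%. COL3A1 was higher at a log2 fold change of 1.77 and COL1A1 lower at -0.40, per the authors' deposited table. Of 14 colon epithelial markers 7 were listed, 4 higher and 3 lower. EPCAM and CDH1, which define epithelial cells, had log2 fold changes of -1.15 each, per the authors' deposited table. The 4 higher markers were keratins, KRT20 at 2.08, KRT8 at 0.61, KRT19 at 0.52 and KRT18 at 0.47, per the authors' deposited table; CDX2, an intestinal transcription factor gene, was at -0.75. KRT20, KRT8, KRT19 and CDX2 were named after their values were seen. The part of these changes in the values of ICAM1 and IL32 was not tested. The tables give no levels, so whether a marker was absent cannot be read from them, and in bulk RNA fewer cells with a transcript and less of it per cell cannot be told apart.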

How the data were processed

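RNA was sequenced from 3 wild-type and 3 Rab27B KO cultures, grouped by their titles; the labels call them biological replicates. Libraries were made on the DNBSEQ platform, per the labels' protocols. The submitters' processing notes name HISAT, Bowtie2 and GRCh38, with counting, scaling and test not given in the sources used here. Per the file headers, the authors deposited log2 fold changes of KO over wild type and q-values, and for higher genes also the linear ratio. Folds of lower genes were computed here from the log2 values. Every deposited q-value was below 0.05. No test was added, because no values per sample were given. No counts per sample were analysed, so the depth is unknown. Gene IDs matched RefSeq (GRCh38.p14) for 7656 of 7681 genes, and coordinates are 1-based. Genes and lists were chosen with earlier results of these data known. Named in each list were the 3 genes with the smallest q-value and up to 2 against the majority, with every ICAM gene and listed genes within 100 kb of the genes described; others were named after their values were seen. Around NFKB2, RELA, RELB and NFKBIE neighbours are given by count and range. Alternatives were q below 0.01, a log2 change of at least 1, matching by gene ID, leaving out chromosomes 4, 7, 13 and 15, 2 other motifs and a wider neighbour window. Scripts ran in Python 3.11.15 with pandas 2.3.3 and were tested on simulated data.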

Additional observations from a re-analysis of the deposited data

How the results depend on the processing

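At a q-value below 0.01 and with rows matched by gene ID, all 5 higher and 3 lower genes were still listed; without chromosomes 4, 7, 13 and 15 NFKB1 dropped out by construction and 2 lower genes were left. With a log2 change of at least 1, 2 higher genes were left, BIRC3 and TNFAIP3, beside the lower genes ICAM1 and IL32, and the pathway lists fell to 22 higher and 5 lower genes because fewer genes qualify. At a q-value below 0.01, the IKK list went from 5 higher and 3 lower genes to 3 and 1, the lower survival and feedback targets from 3 to 1 and the higher ICAM genes from 2 to 1; without chromosomes 4, 7, 13 and 15 the higher chemokine and cytokine targets went from 11 to 5. The looser motif was in 13 windows where the consensus was in 7, and the shorter motif was in 6. Within 1 Mb in place of 100 kb, where 15 listed neighbours were higher and 11 lower, 108 were higher and 81 lower, as the wider window holds more genes. Over all listed genes 50.7% were higher. No paired analysis was possible because the tables give no value per sample; for the same reason leaving out a replicate, another normalization and a filter on low counts were not run. Depth is unknown, so the precision of the folds of ICAM1 and IL32 cannot be stated, and no source used here says how genes with few reads were treated.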
